A study of Homo sapiens with 14 samples.

Results

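The nuclear pore complex genes described here are 31 genes chosen by name, out of 78686 gene identifiers in the tables. They encode the structural proteins of the pore and its closest partners, and each of the 31 symbols matched 1 protein-coding gene identifier. RNA was measured in HCT116, an established human colon carcinoma line. All 14 libraries came from cells carrying osTIR1(F74G), a plant-derived F-box protein with a changed auxin-binding pocket, and a SAF-A protein (encoded by HNRNPU) that bears an mAID degron and a Halo tag. SAF-A is an abundant RNA-binding protein of the nuclear matrix, and 5-Ph-IAA, an auxin analog, makes osTIR1(F74G) target the tagged protein for degradation. The titles were read as 2 sets of groups, and each of the 7 groups had n = 2 libraries. The time-course set held vehicle (DMSO), 5-Ph-IAA for 3 h and 5-Ph-IAA for 12 h. The Nutlin set held vehicle (DMSO), Nutlin (an MDM2 inhibitor that stabilises p53), 5-Ph-IAA alone, and the combination of both drugs. A time of 3 h stands in the labels of its treated libraries, but whether it refers to Nutlin, 5-Ph-IAA or both, and the dose of Nutlin, are not stated. The vehicle groups carry the same tagged alleles, so no group shows untagged cells. The labels do not say whether the line is 1 clone or whether the libraries of a group came from separate cultures, so the p-values reflect the spread among these libraries, which may be technical.

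The nuclear pore is the channel through the nuclear envelope for proteins, mRNA and ribosomal particles. The Y complex builds its outer rings, which AHCTF1 (ELYS) tethers to chromatin at the end of mitosis. The inner ring holds the channel proteins, whose phenylalanine-glycine repeats form the permeability barrier, and membrane proteins anchor the ring in the envelope. Filaments on the cytoplasmic side release exported mRNA, and a basket faces the chromatin. Transport receptors of the importin and exportin family carry cargo through the channel under control of the GTPase Ran.

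Total expected counts per library, in megacounts (M), were 33.7 and 34.1 M for vehicle and 35.1 and 33.5 M for the 3 h group. The 12 h libraries had 29.6 and 3.54 M, so that the second 12 h library was by far the shallowest. The Nutlin set held 12.6 to 17.2 M per library. The pore genes together took 0.494% to 0.581% of the counts of a library, and their lowest single count was 83.3. HNRNPU mRNA, read as a check of the target, was 509 and 544 CPM (counts scaled to a common library total, after TMM normalization) in vehicle, 524 and 547 CPM at 3 h and 671 and 636 CPM at 12 h. It was 0.31 ± 0.063 (SE) higher on the log2 scale at 12 h (edgeR adjusted p = 0.00744). In the Nutlin set it was 640.0 and 634 CPM in vehicle and 646 and 639 CPM with 5-Ph-IAA. The design removes the protein, so its mRNA does not show how much was degraded. Summed TPM (transcripts scaled to a common total) of 10 colon epithelium markers was 3503 to 5506, although CDX1 and CEACAM5 were at 0 in all 14 libraries. It was at most 2.41 for 5 fibroblast markers (DCN at 0) and 0.23 for 3 endothelium markers. For 3 markers of kidney or cervix lines (PAX2, SIX2 and CDKN2A) it ran from 10.4 to 18.6 TPM. This last sum was mostly CDKN2A, at 12.9 and 16.1 CPM in the time-course vehicle, where PAX2 was at 0.149 and 0.59 CPM. The colon sum was 4660.2 and 4607 TPM in vehicle and 5475 and 5506 TPM at 12 h. The most expressed of its genes were keratins, KRT8 (4046 and 3978 CPM in vehicle) and KRT19 (2984 and 2836 CPM), so the sum weighs keratins heavily. The keratins KRT18 and KRT19 were 0.34 and 0.20 higher at 12 h on the log2 scale, and the part of this shift in the results below was not tested. The 12 h libraries stood apart from each other as well as from the rest: replicate 2 lay at 113.4 on the first principal component (32.7% of variance) and replicate 1 at -107.1 on the second (27.6%). The 2 Nutlin libraries also stood apart from each other, as described below.

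The upstream sequences of 4 members are shown because they mark contrasts in the results. NUP155 fell at 12 h, and NUP210 and POM121C rose, although POM121C lost its call in some alternatives. POM121 is the near copy of POM121C whose reads are hard to separate from it. The sequences come from RefSeq (GRCh38.p14), 5′ to 3′ on the gene's strand, and end just before the RefSeq start. NUP155 ends 75 bases before it because only bases outside GENCODE 29 exons are printed. For the same reason NDC1, the gene with the lowest value at 12 h, and NUP88 are not shown, as their windows lie wholly in such exons. The windows are chr5:37371182-37371356 (minus strand) for NUP155, chr3:13420323-13420572 (minus) for NUP210, chr7:75486300-75486549 (minus) for POM121C and chr7:72879107-72879356 (plus) for POM121. Capitals mark GGGCGG or its reverse complement, the core of an SP1 site.
NUP155: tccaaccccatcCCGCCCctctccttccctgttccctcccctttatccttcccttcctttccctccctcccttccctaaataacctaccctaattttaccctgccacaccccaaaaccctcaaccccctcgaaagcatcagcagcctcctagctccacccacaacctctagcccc
NUP210: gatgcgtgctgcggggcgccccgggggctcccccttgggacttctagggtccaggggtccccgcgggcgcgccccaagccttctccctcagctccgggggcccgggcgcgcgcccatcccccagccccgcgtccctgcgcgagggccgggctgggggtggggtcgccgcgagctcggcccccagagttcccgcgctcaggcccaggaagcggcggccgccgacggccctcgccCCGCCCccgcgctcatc
POM121C: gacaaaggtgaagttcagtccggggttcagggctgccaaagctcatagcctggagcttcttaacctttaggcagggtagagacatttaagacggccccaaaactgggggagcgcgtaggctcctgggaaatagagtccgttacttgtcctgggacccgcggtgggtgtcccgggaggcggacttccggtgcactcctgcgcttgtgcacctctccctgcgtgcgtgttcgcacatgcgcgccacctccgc
POM121: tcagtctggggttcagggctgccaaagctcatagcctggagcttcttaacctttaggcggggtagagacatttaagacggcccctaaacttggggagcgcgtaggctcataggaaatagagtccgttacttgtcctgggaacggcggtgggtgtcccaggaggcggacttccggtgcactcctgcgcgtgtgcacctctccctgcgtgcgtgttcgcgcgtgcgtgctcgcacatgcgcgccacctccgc
In a global alignment the POM121 and POM121C windows were identical at 226 of 264 columns (85.6%), with 28 gap columns. GC content was 57.1% for NUP155, 80.8% for NUP210, 60.8% for POM121C and 61.2% for POM121.

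RefSeq windows were matched for 29 of the 31 genes, without AHCTF1 and NUP43. Over the 250 bases before the start, on either strand, GGGCGG was found in 12 of 29 windows (41.4%, against 42.5% of 34943 windows of all genes) and CCAAT in 10 (34.5% against 32.0%). TTTGAA, the core of the cell cycle homology region, was found in 6 (20.7% against 13.4%), and TTTCCCGC, an E2F site, in 0 (1.39% of all windows). The NRF1 palindrome was found in 3 windows (10.3% against 1.02%), those of NUP107, NUP62 and NUP50. GGGCGG and the reverse complement of TTTCCCGC can share letters, so these motifs are not independent. Among genes that fell at 12 h, 4 of 9 windows held CCAAT, 2 held TTTGAA and 1 held the NRF1 palindrome. Among those that did not pass, the counts were 5, 4 and 2 of 17 windows. A match is a description of the letters and not of a bound site.

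Levels between genes were compared as the authors' TPM, which is scaled by transcript length, over the 4 vehicle libraries. NUP93, the scaffold of the inner ring, had the highest level at 113.7 ± 9.42 TPM (SD, n = 4), with libraries from 100.2 to 122. Its range did not overlap that of SEC13, a Y complex subunit shared with the COPII coat, at 84.5 ± 9.99 TPM (74.7 to 97.8). NUP37, NUP85 and NUP107 of the Y complex and NUP88 of the cytoplasmic side followed at 71.4 to 74.5 TPM, and their ranges overlapped. The highest member of the central channel was NUP58 (59.6 ± 6.06 TPM), that of the basket TPR (48.7 ± 11.6 TPM) and that of the membrane ring NDC1 (35.1 ± 4.38 TPM). At the low end were NUP62 (15.8 ± 2.64 TPM), NUP210 (10.4 ± 0.854 TPM), NUP214 (6.71 ± 1.32 TPM), POM121C (4.55 ± 1.41 TPM) and POM121 (2.67 ± 1.003 TPM). Among neighbours in this order the ranges failed to overlap only between NUP93 and SEC13, NUP62 and NUP210, and NUP210 and NUP214. The membrane ring held members from 2.67 to 35.1 TPM and had the lowest median level of the subcomplexes, 7.49 TPM against 33.4 to 46.4 TPM in the others. Ranking by FPKM or by CPM per kb of length gave the same order for all 31 genes. These measures divide the same counts by the same transcript lengths as TPM, so this is no separate check of the order.

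**Figure D1:**
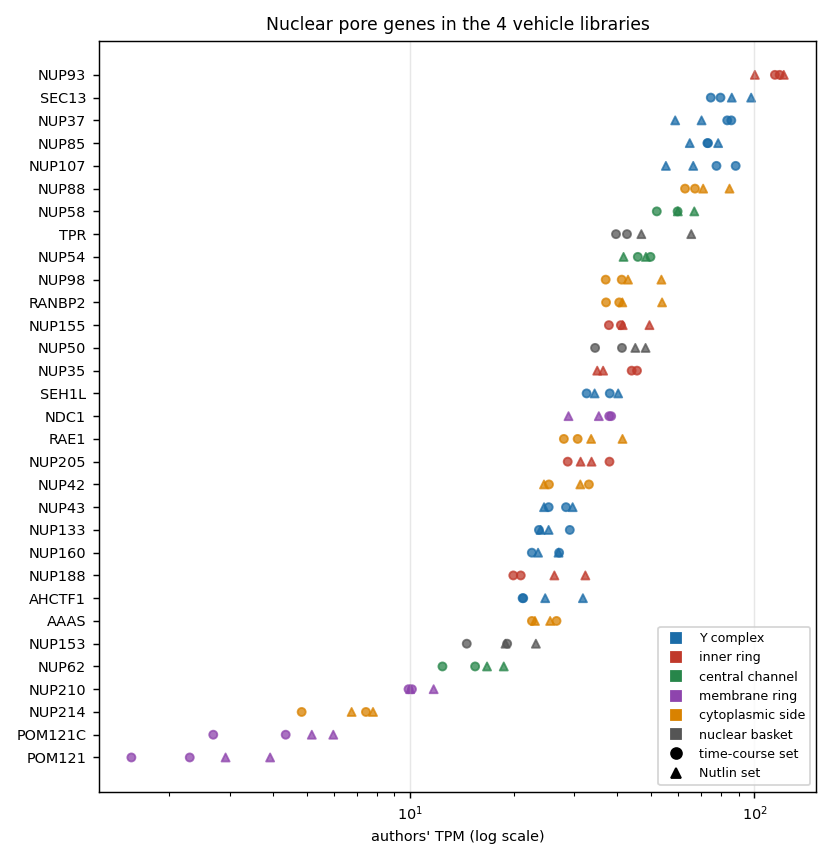
TPM of the 31 nuclear pore genes (log axis) in the 4 vehicle libraries, circles for the time-course set and triangles for the Nutlin set, coloured by subcomplex and ordered by mean. NUP93 lies highest at 113.7 TPM on average, and the transmembrane genes POM121C and POM121 lie lowest at 4.55 and 2.67 TPM.

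After 3 h of 5-Ph-IAA in the time-course set, no pore gene passed the test. The question was whether short loss of SAF-A alters their RNA. edgeR called 0 of 31 members against 13 of 19049 genes in all (0.0682%), and DESeq2 also called 0 members. At an unadjusted p under 0.05 there were 2 members, SEC13 and NUP93, beside 6.45% of all genes. The median log2 fold change of the members was 0.01, against -0.01 for all genes. SEC13 had the highest value: 140.4 and 127 CPM in vehicle, 162 and 160.5 CPM at 3 h, a log2 fold change of 0.27 ± 0.080 (adjusted p = 0.579). The libraries did not overlap. NUP42, an mRNA export factor at the cytoplasmic filaments, had the lowest: 40.9 and 47.5 CPM in vehicle against 41.7 and 38.2 CPM at 3 h, which overlapped (-0.15 ± 0.11, adjusted p = 0.906, and 0.066 with limma on TPM). Without vehicle replicate 1, 2 members were called beside 1.35% of all genes: SEC13 (0.37, adjusted p = 0.0462) and RAE1, an mRNA export factor bound to NUP98 (0.44, adjusted p = 0.0457).

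In the Nutlin set, 5-Ph-IAA alone also left the pore genes without a call. edgeR called 0 of 31 members and 0 of 17251 genes (0%), with 0 members at an unadjusted p under 0.05 beside 1.42% of all genes, and DESeq2 called 0 members. When vehicle and 5-Ph-IAA were fitted without the groups given Nutlin, 0 members passed beside 0.0564% of all genes. In the main fit, values ran only from -0.03 to 0.12 on the log2 scale. The highest was NUP133, a Y complex subunit that binds curved membrane, with 167 and 162 CPM in vehicle and 178 and 179 CPM with 5-Ph-IAA (0.12 ± 0.12, adjusted p = 1). The lowest was NUP37, a peripheral Y complex subunit, with 85.9 and 91.9 CPM in vehicle and 87.7 and 86.5 CPM with 5-Ph-IAA (-0.03 ± 0.14, adjusted p = 1). When the 3 h effects of both sets were set against each other, 0 members differed among 12 genes that did (0.0636%), and DESeq2 called 0 members. In that test 1 member, SEC13, was at an unadjusted p under 0.05, beside 6.35% of all genes. The largest differences, Nutlin set minus time-course set, were -0.28 for SEC13 and 0.20 for NUP43, a peripheral Y complex subunit. For the effect common to both sets, 0 of 31 members and 0 of 18873 genes (0%) were called, DESeq2 called 0 members, and 1 member, SEC13, was at an unadjusted p under 0.05 beside 4.62% of all genes. Its values ran from -0.05 (NUP107) to 0.15 (SEC13).

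After 12 h of 5-Ph-IAA, 13 of the 31 pore genes passed the test, 10 lower and 3 higher than vehicle. Over all 19049 genes tested, 11.4% passed, 7.97% lower and 3.39% higher. DESeq2 called 15 members, 11 lower and 4 higher, beside 21.8% of the 10555 genes to which it gave an adjusted p. Of the 19049 genes in the edgeR test, only 7609 had a mean CPM at least that of the lowest member. The share over all genes thus includes many genes with lower counts. Without 12 h replicate 1, leaving only the shallow library, 7 passed beside 4.67% of all genes: NUP210 higher, and NDC1, NUP155, NUP107, NUP43, NUP58 and NUP88 lower. The median log2 fold change of the members was -0.02, against 0.00 for all genes, with 15 values above 0 and 16 below. The sign of this median turned with the settings, from -0.15 to 0.12. The summed level of the 31 genes was 5175 and 5346 CPM in vehicle and 4878 and 4944 CPM at 12 h. Their summed TPM overlapped, at 1162 and 1249 in vehicle and 1205 and 1264 at 12 h. Lower genes lay in the Y complex (3 of 9), inner ring (2 of 5), central channel (2 of 3), membrane ring (1 of 4) and cytoplasmic side (2 of 7). Higher genes lay in the membrane ring (2 of 4) and the basket (1 of 3).

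**Figure D2:**
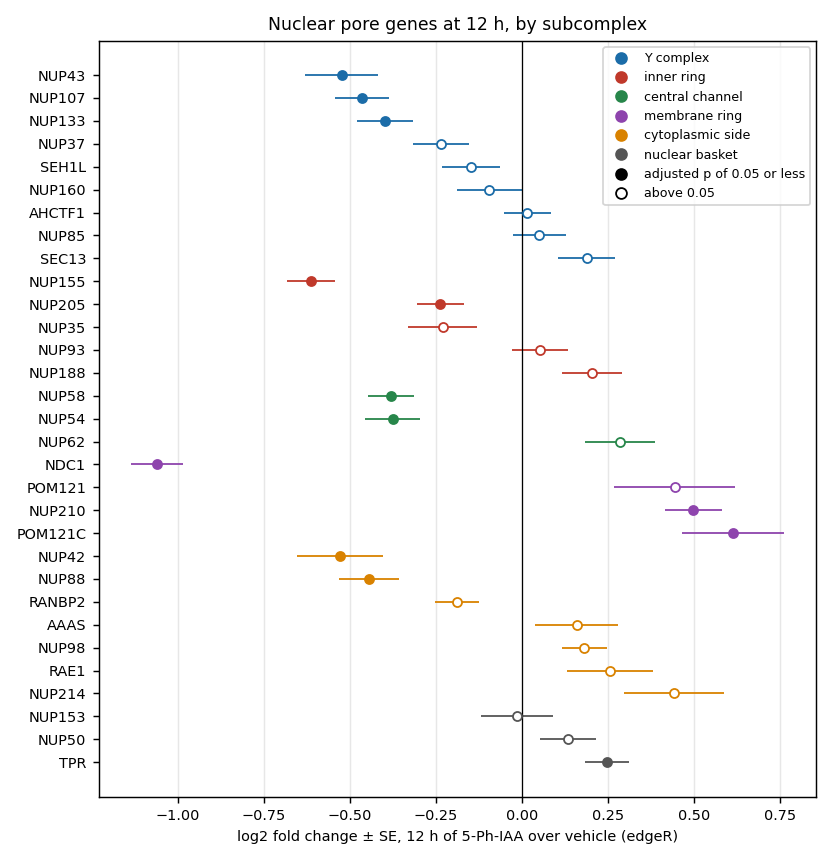
log2 fold change at 12 h of 5-Ph-IAA over vehicle with its SE for each of the 31 genes, grouped and coloured by subcomplex; filled circles have an adjusted p of 0.05 or less. NDC1 lies lowest at -1.06 and POM121C highest at 0.61, both in the membrane ring.

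The membrane ring held the lowest and the highest values. NDC1, a transmembrane protein that anchors the pore in the envelope (chr1:53765460-53838860, minus strand, hg38), was at 230.0 and 223 CPM in vehicle, 209.8 and 209 CPM at 3 h and 107 and 111 CPM at 12 h. Both 12 h libraries lay far below the other 4. NDC1 fell by 1.06 ± 0.074 on the log2 scale (adjusted p = 0.000121), the lowest value among the 31 genes. NUP210 (gp210, chr3:13316235-13420309, minus strand), a glycoprotein that lines the envelope around the pore, was at 105 and 98.5 CPM in vehicle, 109 and 105 CPM at 3 h and 139 and 149.6 CPM at 12 h. It rose by 0.50 ± 0.083 (adjusted p = 0.00278), and its 12 h libraries lay above all others. POM121C, a transmembrane pore protein (chr7:75416787-75486271, minus strand), was at 18.9 and 20.9 CPM in vehicle, 17.3 and 20.01 CPM at 3 h and 32.3 and 27.4 CPM at 12 h. It rose by 0.61 ± 0.15 (adjusted p = 0.019), but without 12 h replicate 1 it was 0.47 (adjusted p = 0.235). The call was also lost with all 14 libraries in 1 fit (0.62, adjusted p = 0.296) and with every library thinned to the shallowest (0.46, adjusted p = 0.124). Its near copy POM121 had a value of 0.44 ± 0.18 (adjusted p = 0.135), and it passed when libraries were thinned (0.81, adjusted p = 0.0144) and without vehicle replicate 2 (0.71, adjusted p = 0.0226). Both hold fractional expected counts in all 14 libraries, so some reads were shared out among genes and their separate values are uncertain. Of the other genes called at 12 h, NUP88 held fractional counts in 14 libraries, NUP133 in 13, NUP42 in 10, TPR in 9 and NUP54 in 1.

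In the Y complex, 3 of 9 subunits fell and 6 did not pass. NUP107 was at 213 and 212 CPM in vehicle, 205 and 193 CPM at 3 h and 160.2 and 146 CPM at 12 h, and fell by 0.46 ± 0.078 (adjusted p = 0.00283). NUP133, its partner in the stem of the Y, was at 170.3 and 183 CPM in vehicle, 185 and 174 CPM at 3 h and 130.4 and 139 CPM at 12 h. It fell by 0.40 ± 0.081 (adjusted p = 0.00792). NUP43 was at 94.1 and 111 CPM, then 97.3 and 88.9 CPM, then 73.9 and 67.1 CPM, and fell by 0.52 ± 0.11 (adjusted p = 0.00796). In all 3 genes the 12 h libraries lay below every vehicle and 3 h library. Without 12 h replicate 1, NUP133 was at -0.33 (adjusted p = 0.102). The other subunits ran from -0.24 (NUP37) to 0.19 (SEC13, 147 and 159 CPM at 12 h), with AHCTF1 at 0.02, a value whose sign turned without 12 h replicate 2 (-0.03).

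The inner ring and the central channel each had 2 members that fell. NUP155, which links the ring to the membrane (chr5:37288137-37371181, minus strand), was at 261 and 275 CPM in vehicle, 257 and 254 CPM at 3 h and 173 and 178 CPM at 12 h. It fell by 0.61 ± 0.070 (adjusted p = 0.000434), with 12 h libraries far below the rest. NUP205, a large scaffold protein, was at 257 and 266 CPM in vehicle, 259 and 258 CPM at 3 h and 217 and 229 CPM at 12 h. Its fall of 0.24 ± 0.069 was close to the threshold (adjusted p = 0.0445). Leaving out either vehicle library or either 12 h library ended this call, with adjusted p from 0.0533 (without 12 h replicate 2) to 0.3 (without 12 h replicate 1). NUP93 did not pass and overlapped, at 220.4 and 192 CPM in vehicle and 221 and 205 CPM at 12 h (0.05 ± 0.082).

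Of the channel proteins, NUP58 was at 289 and 301 CPM in vehicle, 312 and 309.6 CPM at 3 h and 227 and 226 CPM at 12 h. NUP58 fell by 0.38 ± 0.066 (adjusted p = 0.00343). NUP54, its partner in the channel, was at 129.9 and 135 CPM, then 137 and 135 CPM, then 102 and 102 CPM, and fell by 0.38 ± 0.079 (adjusted p = 0.00946). In both genes the 12 h libraries lay below all others. Without 12 h replicate 1, NUP54 was at -0.37 (adjusted p = 0.0807). NUP62, the third protein of this trimer, did not pass and had a value of the other sign: 59.6 and 52.7 CPM in vehicle against 68.3 and 68.5 CPM at 12 h (0.28 ± 0.10, adjusted p = 0.0954).

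On the cytoplasmic side, NUP88 and NUP42 fell. NUP88, which binds NUP214 and NUP98, was at 137 and 145 CPM in vehicle, 132 and 126 CPM at 3 h and 109 and 95.6 CPM at 12 h. It fell by 0.44 ± 0.088 (adjusted p = 0.00682). NUP42 was at 31.4 and 29.04 CPM at 12 h, below the 4 earlier libraries given above, and fell by 0.53 ± 0.125 (adjusted p = 0.017). Without 12 h replicate 1 or without vehicle replicate 2, NUP42 no longer passed (adjusted p = 0.0924 and 0.0825). The other 5 genes ran from -0.19 (RANBP2, the SUMO ligase of the filaments) to 0.44 (NUP214). In the basket, TPR, its main coiled-coil filament protein (chr1:186311652-186375693, minus strand), was at 434 and 452 CPM in vehicle, 455 and 481 CPM at 3 h and 541 and 508 CPM at 12 h. TPR rose by 0.25 ± 0.064 (adjusted p = 0.0271), with both 12 h libraries above the rest, but without 12 h replicate 1 it was 0.21 (adjusted p = 0.165). NUP153 and NUP50, the other basket genes, were at -0.02 and 0.13.

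**Figure D3:**
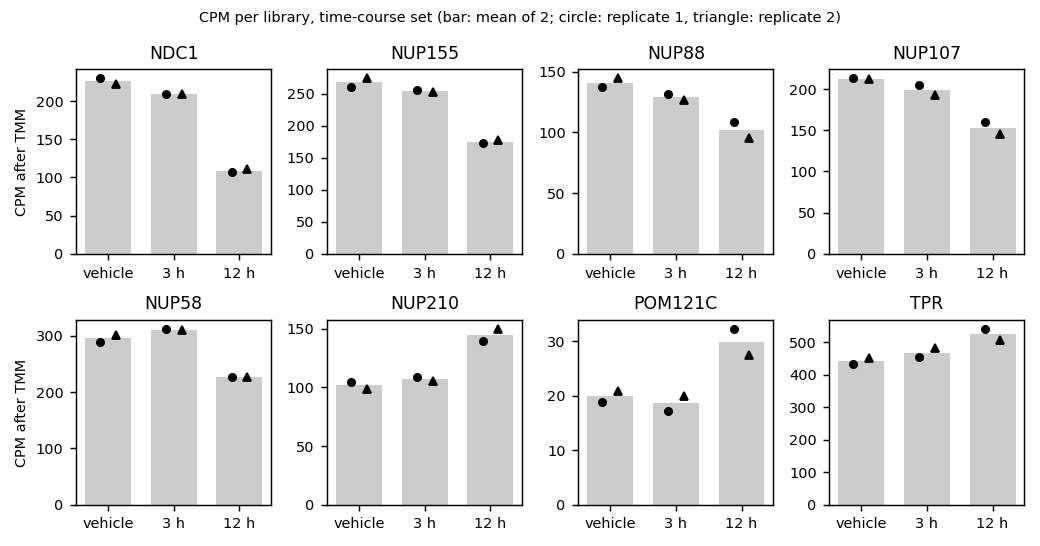
CPM after TMM in each library of the time-course set for 8 pore genes; bars are means of 2 libraries, circles replicate 1 and triangles replicate 2. NDC1 drops from 230.0 and 223 CPM in vehicle to 107 and 111 CPM at 12 h, while NUP210, POM121C and TPR lie higher at 12 h.

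Most of this change lay between 3 h and 12 h. In that comparison, which shares the 12 h libraries with the one against vehicle, 10 of 31 members passed, 8 lower and 2 higher, beside 8.14% of all genes (5.79% lower and 2.35% higher). All 10 were also among the 13 called against vehicle, and NUP42, NUP205 and TPR were not called here (adjusted p = 0.0845, 0.0755 and 0.143). DESeq2 called 15 members beside 17.1% of 10185 genes. In edgeR, NDC1 had the lowest value, -0.95 ± 0.074 on the log2 scale (adjusted p = 0.000309), and NUP155 followed at -0.54 ± 0.070 (adjusted p = 0.00141). POM121C had the highest, 0.71 ± 0.15 (adjusted p = 0.0129). Without 12 h replicate 1 or without 3 h replicate 1 the count was 5 and 4, beside 2.98% and 3.14% of all genes, and NDC1, NUP155 and NUP58 were called in both.

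The size of the 12 h values followed base composition among the members. GC content of the longest transcript was 36.4% to 47.4% for the 10 genes that fell, and 40.1% (TPR), 56.9% (POM121C) and 58.3% (NUP210) for the 3 that rose. Across the 31 genes, which share their libraries, the log2 fold change at 12 h and GC had a Pearson r of 0.73 and a Spearman rho of 0.69. Over 17075 tested genes these were 0.13 and 0.34. Many of those genes had lower counts than any member, and genes of a matched level were not compared. When a trend on GC was removed from every library, an alternative chosen after seeing the data, r over the members was 0.36 and 6 of 31 members passed, beside 5.27% of all genes. NDC1 (-0.83, adjusted p = 0.000785), NUP155 (-0.43, adjusted p = 0.00464) and NUP88 (-0.46, adjusted p = 0.0102) still fell, and TPR (0.50, adjusted p = 0.00173) and NUP210 (0.34, adjusted p = 0.0269) still rose. AHCTF1, not called before, also rose. The other 8 of the 13 lost their call, and NUP58 turned to 0.04. Beyond this correction, the part of GC in the 12 h values was not tested.

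**Figure D4:**
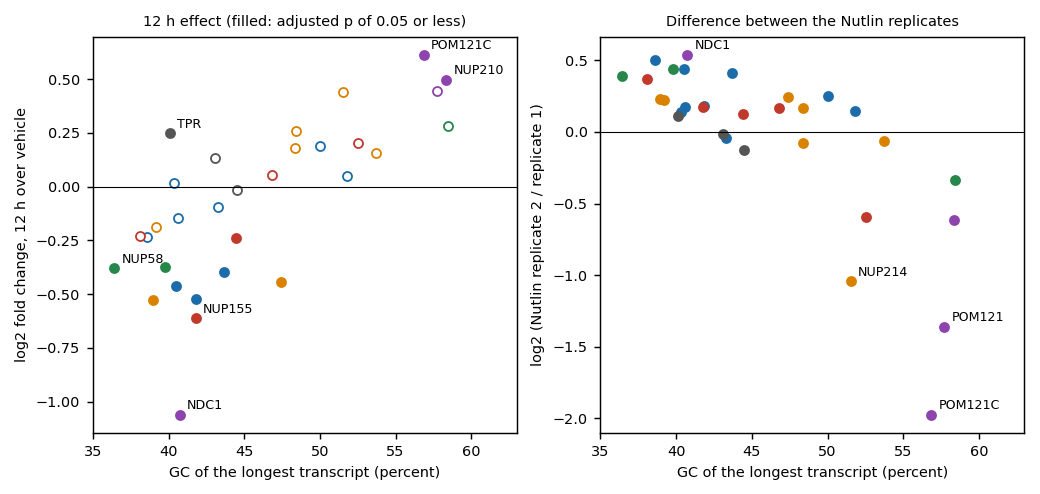
GC percent of the longest transcript against the log2 fold change at 12 h (left) and against the log2 ratio of Nutlin replicate 2 to replicate 1 (right) for the 31 genes, coloured by subcomplex as in the plot of 12 h effects. Pearson r is 0.73 on the left and -0.74 on the right, where POM121C lies lowest at -1.97.

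The mean transcript length that RSEM assigned to a gene, weighted by isoform abundance, changed in some members and separated counts from TPM. For NUP42 it was 1274 and 1208 bases in vehicle, 1082 and 1077 at 3 h and 905 and 923 at 12 h. For NUP58 it was 3775 and 3637 bases in vehicle, 3489 and 3589 at 3 h and 3000.03 and 2590 at 12 h. In both genes the 12 h libraries had the shortest values and did not overlap vehicle, with 12 h to vehicle ratios of 0.736 and 0.754. Their TPM accordingly did not fall: NUP42 was at 25.3 and 33.1 TPM in vehicle and 31.2 and 29.3 TPM at 12 h, and NUP58 at 52.0 and 59.8 TPM against 55.5 and 66.9 TPM. NDC1 fell in TPM too, from 37.9 and 38.4 to 18.8 and 18.0. At 12 h the length was shorter without overlap in 11 members and longer in 3, beside 23% and 9.29% of all genes. TPM was lower without overlap in 7 members, NDC1, NUP155, NUP107, NUP133, NUP88, NUP37 and NUP35, and higher in 13, beside 17.2% and 28.6% of all genes. These lengths are estimates of the authors' quantification, and shorter isoforms cannot be told apart here from uneven coverage.

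Nutlin alone was measured by 2 libraries that differed from each other, in the pore genes as in other genes. Of 31 members, 6 differed by more than 0.5 on the log2 scale between the Nutlin replicates, and 0 did so in any of the other 6 groups. Among 6322 genes with a mean CPM at least that of the lowest member, 11.3% differed by as much between the Nutlin replicates, and at most 0.237% in the other groups of this set. POM121C was at 35.2 and 33.6 CPM in vehicle and at 47.6 and 12.1 CPM with Nutlin, so that the vehicle libraries lay between the Nutlin ones. POM121 was at 28.7 and 32.3 CPM in vehicle and 37.5 and 14.6 CPM with Nutlin, and NUP214 at 46.7 and 45.0 CPM against 58.3 and 28.3 CPM. Over the members, the log2 ratio of replicate 2 to replicate 1 ran from -1.97 to 0.54 and had r = -0.74 and rho = -0.72 with GC. The part of this difference in each Nutlin value below was not tested, except by leaving out each library.

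With both libraries, edgeR called 0 of 31 members for Nutlin against vehicle, beside 80 of 17251 genes (0.464%). DESeq2 called 1 member, NUP153 (-0.38, adjusted p = 0.0362), beside 158 of 14241 genes (1.11%). At an unadjusted p under 0.05 there were 3 members, NUP153, AHCTF1 and RANBP2, beside 10.8% of all genes. NUP153, the basket protein that docks the basket to the ring, was at 181 and 186 CPM in vehicle and 147 and 135 CPM with Nutlin, which did not overlap (-0.38 ± 0.088, edgeR adjusted p = 0.135). AHCTF1 was at 318 and 354 CPM in vehicle and 252 and 277 CPM with Nutlin, also without overlap (-0.34 ± 0.096, adjusted p = 0.233). The highest value was that of AAAS (aladin), a WD-repeat protein of the cytoplasmic side, at 54.3 and 52.2 CPM against 59.5 and 56.9 CPM (0.13 ± 0.090, adjusted p = 0.662). Without Nutlin replicate 1, 8 members passed, 7 lower and 1 higher, beside 11.6% of all genes. Without Nutlin replicate 2, 7 passed, 5 lower and 2 higher, beside 6.4%. These fits hold 1 Nutlin library each, so their p-values do not measure the spread between the Nutlin libraries. NUP153 was lower in both (-0.44 without replicate 1 and -0.32 without replicate 2), as was AHCTF1 (-0.27 and -0.42). POM121C had opposite signs, -1.50 without replicate 1 and 0.46 without replicate 2.

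With 5-Ph-IAA and Nutlin together against vehicle, 0 of 31 members were called by edgeR beside 0.325% of all genes, and DESeq2 called 0. At an unadjusted p under 0.05 there was 1 member, NUP85 of the Y complex (-0.20), beside 7.26% of all genes. NUP62 had the lowest value, with 74.6 and 73.1 CPM in vehicle and 59.7 and 64.7 CPM with both drugs, which did not overlap (-0.25 ± 0.12, adjusted p = 0.711). POM121C had the highest, at 38.9 and 39.3 CPM with both drugs (0.18 ± 0.42, adjusted p = 0.975). This SE uses the spread within all groups of the set, the Nutlin libraries at 47.6 and 12.1 CPM among them. With the compared groups only, 0 members were called beside 2.39% of all genes. NUP153 was at 158 and 167 CPM with both drugs, below vehicle and above Nutlin alone (-0.18 ± 0.087, adjusted p = 0.721), and AHCTF1 at 295 and 307 CPM. For Nutlin within 5-Ph-IAA, edgeR called 0 members (0.388% of all genes) and DESeq2 0, with 2 members, NUP62 and NUP85, at an unadjusted p under 0.05 beside 7.61%. NUP62 was again lowest (75.2 and 76.1 CPM with 5-Ph-IAA alone, -0.28 ± 0.12, adjusted p = 0.591), and it was called when those 2 groups were fitted alone (-0.28, adjusted p = 0.0405), a fit that called 3.78% of all genes. This comparison shares libraries with the one against vehicle. For 5-Ph-IAA within Nutlin, edgeR called 0 members and 0 genes (0%) and DESeq2 0 members, although DESeq2 gave an adjusted p for only 1532 genes. At an unadjusted p under 0.05 there were 3 members, SEC13, NUP85 and NUP153, beside 8.14%. Values ran from -0.24 (SEC13, 156 and 186 CPM with Nutlin, 146 and 145 CPM with both drugs) to 0.41 (POM121C). For the interaction of the drugs, edgeR called 0 members and 0 genes (0%) and DESeq2 0 members, with 0 members at an unadjusted p under 0.05 beside 3.61%. Without Nutlin replicate 1, the counts for 5-Ph-IAA within Nutlin and for the interaction became 13 and 5 members, beside 13.6% and 5.65% of all genes.

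**Figure D5:**
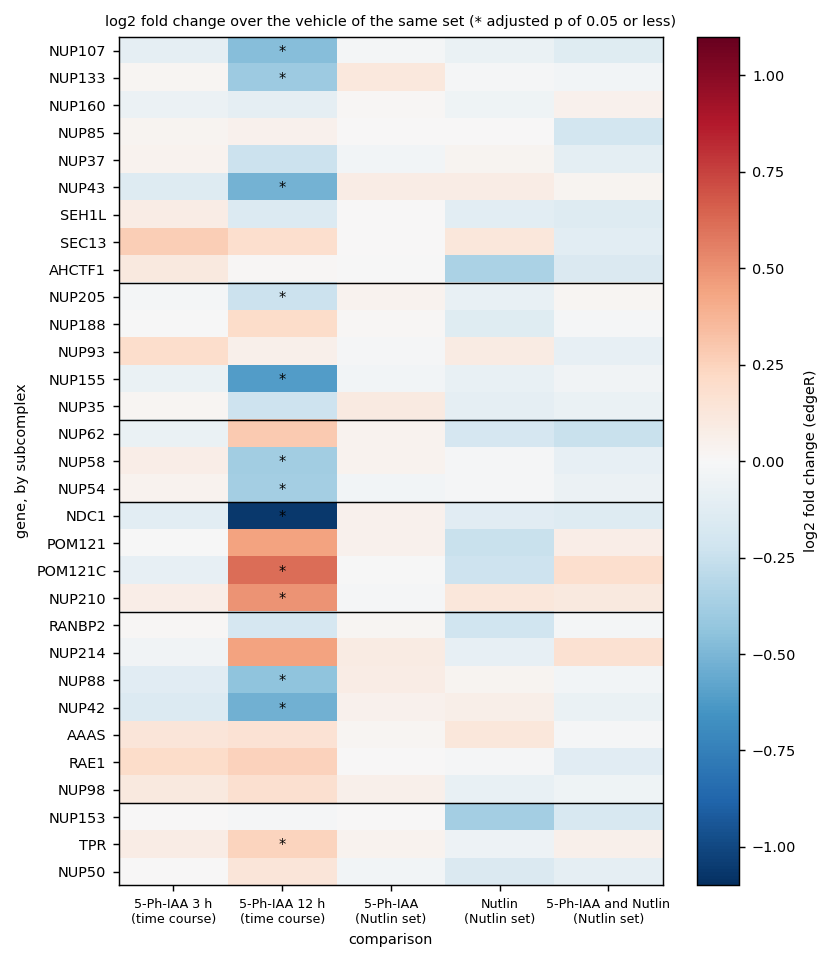
log2 fold change of the 31 genes, grouped by subcomplex, over the vehicle of their own set in 5 comparisons; an asterisk marks an adjusted p of 0.05 or less. The 13 asterisks all lie in the 12 h column, where NDC1 is lowest at -1.06.

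Genes that work with the pore were read from lists of known partners. Of 24 import and export receptors, 0 rose and 10 fell at 12 h, with a median log2 fold change of -0.28 against 0.00 for all genes. Of all genes, 3.39% rose and 7.97% fell, and the counts of the lists below stand beside those shares. The lists were read in the main edgeR fit only, and their calls were not checked in the alternatives. CSE1L, which returns importin alpha to the cytoplasm, was at 453 and 458 CPM in vehicle and 251 and 274 CPM at 12 h (-0.80 ± 0.070, adjusted p = 0.000171). TNPO1 (transportin), XPO1 (the main exportin) and KPNA5 (an importin alpha) fell by 0.59, 0.54 and 1.18. Of 14 genes of the Ran cycle and SUMO pathway at the pore, 1 rose and 0 fell: RANGAP1, the Ran GTPase activator bound to RANBP2, by 0.28 ± 0.070 (adjusted p = 0.0254). Of 24 mRNA export genes, 3 rose and 2 fell. DDX19A and DDX19B, near copies that encode the helicase acting at NUP214, rose by 0.43 and 0.58, THOC5 of the THO complex rose by 0.33, and PCID2 of the TREX-2 complex fell by 0.34. Of 14 pore assembly and envelope partners, 0 rose and 3 fell. LBR, the lamin B receptor, was at 171.2 and 181 CPM in vehicle and 95.7 and 86.0 CPM at 12 h (-0.94 ± 0.084, adjusted p = 0.000171), and TMEM33 and REEP3 fell by 0.34 and 0.33. Among 8 tested near copies of members, 1 fell: RGPD5, a copy of RANBP2, at 18.1 and 29.5 CPM in vehicle, 47.1 and 36.9 CPM at 3 h and 4.31 and 5.75 CPM at 12 h (-2.37 ± 0.27, adjusted p = 0.000434). Its value is uncertain, since RGPD6 and RGPD8 are further copies. In the Nutlin set's vehicle libraries RGPD5 was at 44.1 and 96.9 CPM and RGPD6 at 101.2 and 40.1 CPM. RANBP2 itself was at 579 and 596 CPM in vehicle and 493 and 541 CPM at 12 h.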

How the data were processed

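Total stranded rRNA-depleted RNA was sequenced, per the labels' protocols. The authors deposited RSEM gene tables with expected counts, TPM and FPKM, per the file headers. The submitters' processing notes name STAR 2.7.10b, RSEM, DESeq2 1.48.1 and hg38/GRCh38, without roles. The annotation release is not given in the sources used here. Members and gene lists were chosen with earlier results of these data known.

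Expected counts were rounded and tested in R 4.3.3 with edgeR 4.0.16 (TMM, filterByExpr with a minimum count of 10 and total of 15, quasi-likelihood F test, 1 coefficient per group), separately per set. Tests were two-sided, with Benjamini-Hochberg adjustment over 19049, 17251 or 18873 genes, with a threshold of 0.05. All 31 members were tested in every fit, and 13 had fractional counts in some library. The SE is the log2 fold change divided by the square root of F. All groups of a set share 1 estimate of spread per gene. The Nutlin libraries therefore enter the SE and p of every comparison in the Nutlin set. The 3 h libraries of both sets were also fitted together. CPM after TMM is comparable only within a set.

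Alternatives were DESeq2 1.42.0, RLE factors, leaving out each library, no filter, a block on replicate number, the compared groups only and all 14 libraries in 1 fit. A GC correction, thinning to the shallowest library and limma 3.58.1 on log2(TPM + 1) were chosen after seeing the data. In fits with 1 coefficient per group, a group left with 1 library adds nothing to the estimate of spread. The p-values of such fits rest on the spread within the other groups. Replicate numbers were treated as labels. In simulated data for the 12 h comparison (17923 genes, 200 changed), 33% of 1.5-fold and 48% of 2-fold changes were recovered. For Nutlin (16790 genes) these were 24% and 52%. The changed genes were drawn at random from all genes that passed the filter. In the time-course set only 7609 of 19049 such genes had a mean CPM at least that of the lowest member. The recovery rates therefore do not describe the pore genes. Any member could be named. Values by library were given for members that passed at 12 h, the extremes of each comparison and the highest member of each subcomplex by TPM, and for POM121, NUP214, AHCTF1 and RANBP2, chosen after their values were seen. Up to 4 passing genes of each list were named, or else the 2 most expressed. Positions and GC come from GENCODE 29 (hg38). A list of immune markers is not reported here.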

Additional observations from a re-analysis of the deposited data

Results flagged for a closer look

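For 10 pore genes the effect of 5-Ph-IAA at 12 h differed from that at 3 h in the edgeR test of the difference itself. The values, 12 h minus 3 h on the log2 scale, were -0.95 for NDC1, -0.54 for NUP155, -0.45 for NUP58, -0.42 for NUP133, -0.41 for NUP54, -0.38 for NUP43, -0.37 for NUP107, -0.32 for NUP88, 0.42 for NUP210 and 0.71 for POM121C. Both effects were measured against the same vehicle libraries, which cancel in the difference. It is therefore the comparison of 12 h with 3 h given above and not a further result. NDC1 and NUP155 kept their call in 12 of 13 alternatives, and NUP88 in 6 of 13.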

How the results depend on the processing

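At 12 h, NDC1, NUP155, NUP88 and NUP210 were called in 12 of 13 alternatives, all but limma on log2(TPM + 1), while NUP205 was called in 4. The count of members called at 12 h (13) was 6 with the GC correction, 0 with limma on log2(TPM + 1), which called 2 genes in all, and 7 to 14 with 1 library left out. The count for 12 h against 3 h (10, beside 8.14% of all genes) was 6 with all 14 libraries in 1 fit, beside 6.72%. It was 0 with limma on TPM, beside 0.00525%. With the GC correction, all genes called at 12 h were 899 (441 higher, 458 lower) in place of 2163 (645 and 1518). With the replicate number as a block, 14 members were called at 12 h beside 13.1% of all genes (11.4% without the block), and same-numbered libraries' deviations correlated from -0.089 to 0.047, so the numbers were not used to pair libraries. Counts of 0 became 0 to 2 at 3 h, 0 to 8 for Nutlin, 0 to 13 for 5-Ph-IAA within Nutlin and 0 to 5 for the interaction with 1 library left out, 1 for Nutlin with DESeq2, and 1 for Nutlin within 5-Ph-IAA with the compared groups only. Among values called in the main analysis or in the alternative, 6 turned sign: NUP58 at 12 h (0.044 with the GC correction, 0.12 with limma on TPM) and against 3 h (0.014, limma), NUP42 at 12 h (0.062, limma), POM121C with Nutlin (-1.50 without replicate 1, 0.46 without replicate 2) and NUP210 for 5-Ph-IAA within Nutlin (0.31 without Nutlin replicate 1, -0.29 without replicate 2). A further 35 of 1196 values of single genes, none of them called, turned sign, NUP42 at 3 h and AHCTF1 at 12 h among them. The members' median at 12 h (-0.015) ran from -0.15 to 0.12. The cause was not tested. Over all genes, Nutlin called 80, against 158 with DESeq2, 405 with no filter, 27 with the compared groups only, and 2131 and 1177 without Nutlin replicate 1 or 2; 12 h called 961 without its replicate 1 and 1391 with the compared groups only. The 12 h values rest on 2 libraries, of which the second had 3.54 M counts.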
